A study of Mus musculus with 30 samples.

Results

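Microexons are exons so short that they code for a few amino acids or fewer, and here the name stands for annotated mouse exons of 3 to 15 nt. They were the 2110 exon events of that length, in 1760 genes, among the 661327 splicing events of every type listed in the deposited splicing table. For comparison, the same table lists 1542 exons of 16 to 27 nt and 188930 exons of 28 nt or more. The measure was the percent spliced in (PSI), the share of a gene's informative junction reads that include the exon, and a PSI was used in a library only where at least 10 such reads stood behind it.

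The cells were CGR8, a mouse embryonic stem cell line (ESC), and RNA was also taken from embryoid bodies grown from them and collected on day 8 (EB8), and from cultures after 7 days in vitro that are labelled as glutamatergic neurons (DIV7). Each stage was sampled in 4 lines edited with CRISPR-Cas9 and in their unedited parent. Puf60.mEx5.HOM is homozygous for a deletion of Puf60 exon 5, Puf60.pEx5.HOM and Puf60.pEx5.HET always include that exon from both alleles or from one, Rbm38KO carries a deletion inside Rbm38, and WT is the parental line. The 15 groups of stage and line had 2 libraries each, named A and B, 30 in all. The edited lines are clonal and the study names 2 independent clones, but the labels do not tie a library to a clone, so the spread between A and B may be that of clones, of cultures or technical.

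In neurons, a program of alternative splicing includes many microexons that other cells skip. The splicing activators Srrm3 and Srrm4 bind close upstream of many of them, Rest represses the Srrm4 gene outside neurons, and Ptbp1 represses many neuronal exons. Microexons often add a few residues at the surface of a protein domain, and the proteins concerned are rich in synaptic, cytoskeletal and vesicle-traffic proteins. Puf60 is a splicing factor that recognises pyrimidine tracts and acts with U2AF in choosing splice acceptors, and Rbm38 is an RNA-binding protein that regulates splicing and mRNA stability.

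The microexons on which the results turn are printed here as they sit in the spliced mRNA, 5′ to 3′, with the microexon in capitals and the 15 nt of each neighbouring exon in lower case. The sequences are from GENCODE M21 transcripts, and positions are for build mm10. The first 3 pairs are microexons at the same place in related genes, shown because both members of each pair are described below. The next 5 rose during differentiation, and the last 4 fell at its last step or were lower in the line whose other microexons were high.
L1cam, chrX:73855652-73855663, minus strand: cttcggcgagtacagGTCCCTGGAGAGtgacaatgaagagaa
Nrcam, chr12:44597782-44597793, plus strand: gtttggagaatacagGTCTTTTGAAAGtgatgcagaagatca
Adgrl1, chr8:83926262-83926276, plus strand: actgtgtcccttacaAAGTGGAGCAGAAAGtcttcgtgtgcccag
Adgrl2, chr3:148860427-148860438, minus strand: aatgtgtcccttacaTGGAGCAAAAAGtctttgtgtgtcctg
Dnm1, chr2:32323179-32323190, minus strand: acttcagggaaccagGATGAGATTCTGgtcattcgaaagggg
Dnm2, chr9:21490658-21490669, plus strand: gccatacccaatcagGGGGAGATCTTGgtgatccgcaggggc
Sptan1, chr2:30014158-30014172, plus strand: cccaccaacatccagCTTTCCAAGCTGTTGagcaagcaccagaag
Kdm1a, chr4:136563438-136563449, minus strand: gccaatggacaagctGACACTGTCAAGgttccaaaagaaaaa
Dctn1, chr6:83197319-83197333, plus strand: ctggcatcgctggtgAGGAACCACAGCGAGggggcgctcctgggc
Fnbp1, chr2:31044882-31044896, minus strand: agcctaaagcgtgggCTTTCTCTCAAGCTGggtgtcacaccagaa
Emc1, chr4:139364331-139364339, plus strand: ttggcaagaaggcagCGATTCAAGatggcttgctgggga
Macf1, chr4:123386549-123386557, minus strand: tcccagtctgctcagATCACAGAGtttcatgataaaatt
Supt5, chr7:28330018-28330029, minus strand: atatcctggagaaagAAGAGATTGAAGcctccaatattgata
Cacna1b, chr2:24642853-24642858, minus strand: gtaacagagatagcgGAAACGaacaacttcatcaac
Robo2, chr16:74008775-74008786, minus strand: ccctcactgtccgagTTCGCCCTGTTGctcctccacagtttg
L1cam and Nrcam share 8 of the 12 microexon letters, and Dnm1 and Dnm2 also share 8 of 12. The microexons of Adgrl1 and Adgrl2 differ in length, but 14 of the 15 letters before them and 12 of the 15 after them are the same. In L1cam the microexon is exon 28 of 29 in the transcript used, next to an upstream intron of 95 nt and a downstream one of 385 nt. In Fnbp1 it is exon 11 of 17, between introns of 8088 and 4367 nt.

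Of the annotated microexons that could be measured, most stayed under a PSI of 5 in every group. Of the 2110, 1699 had usable values in both libraries of at least 1 group. Of those, 733 had a PSI of 0 in every usable group and 597 stayed under 5 without being 0 throughout. Another 83 were over 95 in every usable group and 70 reached 5 but spanned less than 10 PSI points between groups. The remaining 216 reached a PSI of 5 or more in some group and spanned at least 10 points.

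The 216 that varied differed from the silent ones in length and annotation. A length divisible by 3, which leaves the reading frame intact, was found in 81.5% of the 216 against 57.2% of the 733 at 0 and 63.8% of all 2110. An exon with exactly these ends is in GENCODE M21 for 60.2% of the 216 and for 9.14% of the 733. Of 514 usable microexons of 3 nt, 2.72% spanned 10 points or more. The share was 17.9% of 134 at 6 nt, 29.5% of 149 at 9 nt, 34.4% of 160 at 12 nt and 24.4% of 160 at 15 nt. At lengths in between it was lower, for example 8.57% of 70 at 8 nt and 12.7% of 63 at 11 nt. The deposited read numbers behind PSI are corrected for mappability. They were set against raw reads, with inclusion summed over junctions, as a ratio of corrected to raw odds of inclusion. Its median over tested microexons was 1.12 at 3 to 8 nt and 1.85 at 9 to 15 nt. For exons of 28 nt or more it was 0.515. The ratio thus depends on how many junctions are summed as well as on mappability, and its part in these shares was not tested.

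**Figure D1:**
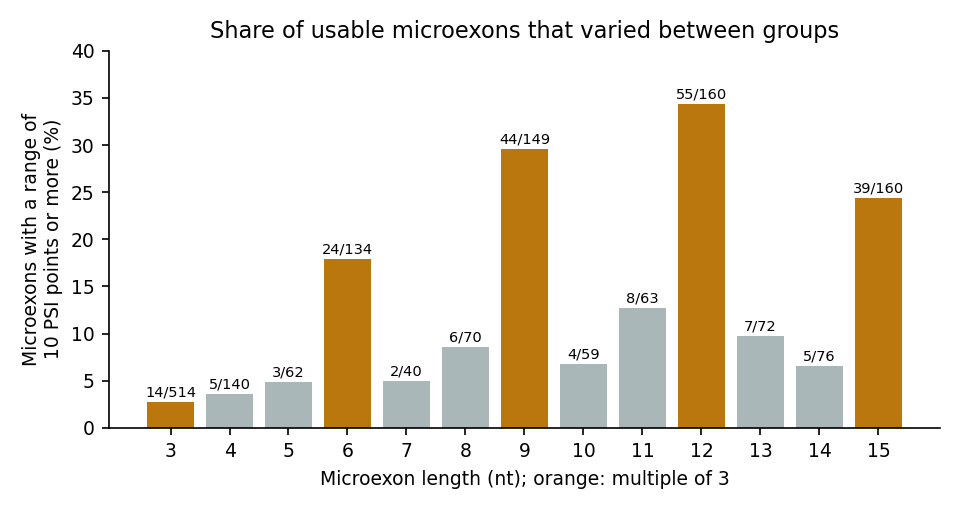
Share (%) of usable microexons whose group mean PSI reached 5 and spanned at least 10 points, by microexon length in nt (bars; lengths divisible by 3 in orange, other lengths in grey). The bars at 6, 9, 12 and 15 nt, from 17.9% to 34.4%, stand above all others, while the bar at 3 nt is at 2.72%.

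Tests were run on log2 odds of inclusion, for events of every type with a mean PSI of 5 to 95 over the usable libraries. Of the microexons, 230 in 207 genes passed, 1372 had a mean PSI under 5, 91 were over 95, 57 were usable in 1 to 3 libraries and 360 in none. The filter kept microexons with a mean PSI from 5.06 to 94.9, and the nearest outside it were at 4.98 and 95.7. A microexon at 0 in stem cells passes it only through its level later, so counts over those that passed describe them and do not stand for all 2110. An event was called where the adjusted p was under 0.05 and the difference at least 10 PSI points. Behind each of these microexons stood a median of 103 reads per library, and library medians ran from 75.5 to 121.5.

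The edited genes were checked first. PSI of Puf60 exon 5, a 51 nt exon, was 7.49 to 13.01 in the 6 Puf60.mEx5.HOM libraries, 93.2 to 99.0 in Puf60.pEx5.HOM, 49.2 to 64.9 in Puf60.pEx5.HET, 22.9 to 48.4 in Rbm38KO and 20.7 to 44.0 in WT. The exon was thus low but not at 0 in the line labelled as its homozygous deletion. In the authors' deposited table, Rbm38 was at 5.27, 4.10 and 2.67 RPKM (reads scaled by transcript length and by library size) in Rbm38KO at ESC, EB8 and DIV7, against 79.5, 34.6 and 8.20 RPKM in WT. Summed RPKM of 6 neuron markers in WT was 89.5 at ESC, 900.6 at EB8 and 2547 at DIV7, and that of 5 stem cell markers was 6604, 44.4 and 28.2. Against the label of the DIV7 cultures, the vesicular glutamate transporters Slc17a7 and Slc17a8 were under 1 RPKM in WT at DIV7 and Slc17a6 was at 17.8 RPKM, while 4 genes of GABA or glycine neurons summed to 302.3 RPKM. Of the other lists in WT at DIV7, neural progenitor markers summed to 1985 RPKM, astrocyte markers to 141.9, oligodendrocyte lineage markers to 44.0, endoderm markers to 33.1 and muscle markers to 2.14.

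Microexon inclusion rose at both steps of differentiation in the parental line. Over the 139 tested microexons usable in all 30 libraries, mean PSI in WT was 14.4 ± 0.892 at ESC, 37.2 ± 1.44 at EB8 and 60.4 ± 3.16 at DIV7 (mean ± SD of 2 libraries). At EB8 against ESC, 85 of 160 tested microexons rose and 5 fell, 56.2% in all, where 11.6% of all tested events were called (6.87% higher, 4.78% lower). At DIV7 against EB8, 98 of 192 rose and 12 fell, 57.3% against 15% of all events (9.12% higher, 5.83% lower). At DIV7 against ESC, 109 of 156 rose and 11 fell, 76.9% against 27.5% of all events (17.3% higher, 10.1% lower). The median difference over tested microexons was 17.7 PSI points for the first step and 18.7 for the second, against 1.31 and 0.58 over all events. Exons of 16 to 27 nt came near to this, with 52.1%, 56.6% and 78% called, while exons of 28 nt or more had 20%, 25.8% and 40.9%. As these are bulk samples, a changed share of cells of a type and a changed inclusion within cells cannot be told apart.

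**Figure D2:**
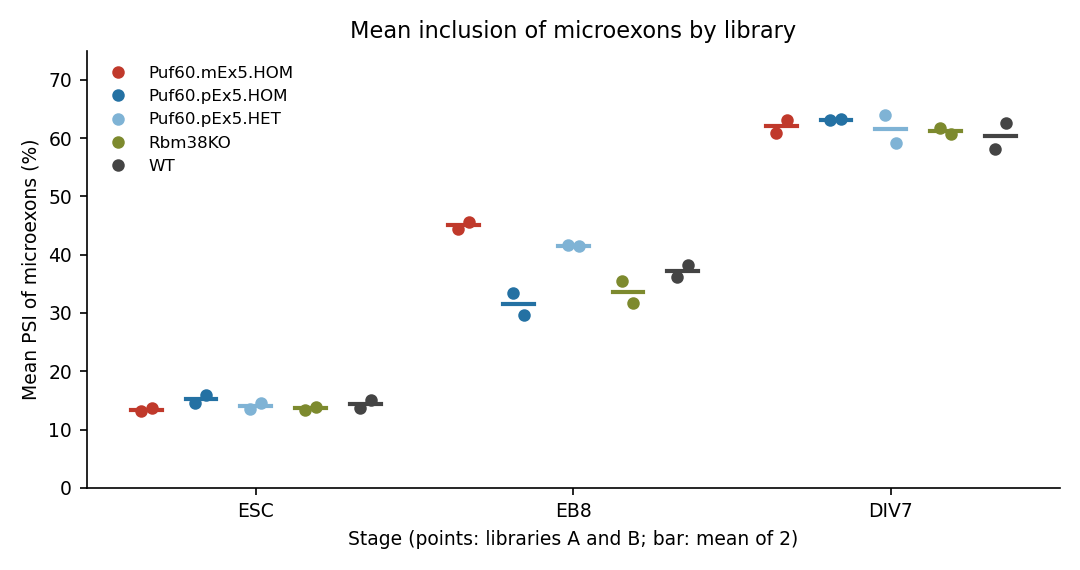
Mean PSI (%) of the 139 microexons usable in all 30 libraries, for each library (points; A left of B) and group (horizontal bar, mean of 2 libraries), by stage and line. Groups of a stage lie close together at ESC (13.4 to 15.2) and DIV7 (60.4 to 63.2) and spread from 31.5 to 45.05 at EB8.

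In the 3 WT comparisons together, which share libraries, 200 microexons were tested at least once. Of these, 124 were called only as rises, 15 only as falls, 3 in both directions and 58 never. The 124 had a median length of 12 nt, and 87.1% were divisible by 3, against 84% of the 200 and 77.6% of the 58. A further limit is that many host genes are silent in stem cells. Of the tested microexons, 55 had usable values in WT at DIV7 and not at ESC. In the authors' deposited table, 45 host genes of those had a median of 0.85, 7.59 and 31.4 RPKM at ESC, EB8 and DIV7. Their median PSI in WT at DIV7 was 73.0, with a range of 2.28 to 99.9.

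The calls among microexons of synaptic scaffold proteins were all rises, where 85 of 90, 98 of 110 and 109 of 120 calls among all tested microexons were rises in the 3 comparisons. Of 11 in the list of active zone and postsynaptic scaffold genes that passed the filter, 6 of 7 tested rose at EB8 against ESC, 7 of 10 at DIV7 against EB8 and 7 of 7 at DIV7 against ESC, and none fell. Of all tested microexons, 85 of 160, 98 of 192 and 109 of 156 rose in the same comparisons. Apbb1 and Apbb2 encode adaptors that bind the amyloid precursor protein. PSI of the Apbb1 microexon, listed at 4 nt, was 0 and 1.63 at ESC, 63.2 and 67.0 at EB8, and 96.0 and 96.8 at DIV7. PSI of the 6 nt microexon of Apbb2 was 0 and 5.78 at ESC, 59.9 and 71.2 at EB8, and 94.5 and 96.7 at DIV7. Neither gene's libraries overlapped between stages. The gain at DIV7 over ESC was 95.5 points for Apbb1 (adjusted p = 2.03e-08) and 92.7 for Apbb2 (adjusted p = 1.38e-09). Erc1, an active zone scaffold, was at 8.46 and 5.72 at ESC, 51.9 and 53.6 at EB8, and 94.0 and 93.3 at DIV7. Cask, a scaffold that binds neurexins, was at 0 in both ESC libraries, where 121 reads allow a PSI of up to 2.48 before the read correction. Its ratio of corrected to raw odds was 4.06, so that limit is too low. Cask was at 35.03 and 44.4 at EB8, and at 75.7 and 83.4 at DIV7.

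More microexons of the cytoskeletal list rose than fell, as among all tested microexons. Of 16 tested in this list, 10 rose and 1 fell at EB8 against ESC, where 85 of 160 tested microexons rose and 5 fell. At DIV7, 11 rose and 2 fell, both against EB8 and against ESC, where 98 of 192 and 109 of 156 rose. PSI of the 15 nt microexon of Sptan1, the alpha chain of non-erythroid spectrin, was 5.41 and 7.23 at ESC, 67.2 and 74.2 at EB8, and 96.7 and 98.1 at DIV7. It was almost always skipped in stem cells and almost always included at DIV7, a gain of 91.1 points (log2 odds ratio 9.08 ± 0.36 SE, adjusted p = 5.59e-15). Abi1, a subunit of the WAVE complex that drives actin branching, was at 2.00 and 5.06 at ESC, 56.5 and 48.4 at EB8, and 90.7 and 94.5 at DIV7. Myo5a, a cargo-carrying myosin, was at 0 in both ESC libraries, where 354 reads allow a PSI of up to 0.848 before the read correction. It was at 52.4 and 62.4 at EB8, and at 92.5 and 93.8 at DIV7. Fry was ahead of these, with 2.48 and 9.71 at ESC, 94.2 and 87.5 at EB8, and 99.3 in each DIV7 library.

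Of the 13 tested microexons in genes of small GTPase and kinase signalling, 10 rose and 1 fell at EB8 against ESC. At DIV7, 8 rose and 1 fell against EB8, and 10 rose and 1 fell against ESC. Of all tested microexons, 85 of 160, 98 of 192 and 109 of 156 rose in these comparisons. Asap1, Asap2 and Agap1 are GTPase-activating proteins of Arf GTPases. Asap1 was at 0 in both ESC libraries, 50.8 and 66.2 at EB8, and 80.5 and 88.8 at DIV7. Asap2 was at 0 in both ESC libraries, 22.9 and 32.1 at EB8, and 81.6 and 82.1 at DIV7. Agap1 took another course, with 0 in both ESC libraries, 65.2 and 73.4 at EB8, and 41.1 and 38.7 at DIV7. It gained 69.3 points at EB8 over ESC (adjusted p = 2.3e-06) and lost 29.4 points at DIV7 over EB8 (log2 odds ratio -1.76 ± 0.23 SE, adjusted p = 2.8e-06). The guanine nucleotide exchange factor Vav2 was at 0 and 1.75 at ESC, 46.7 and 58.6 at EB8, and 77.4 and 84.5 at DIV7.

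All 4 tested microexons in the list of transcription, chromatin and translation genes rose at DIV7, against EB8 and against ESC, and 2 of them had risen at EB8. Among all tested microexons, 98 of 192 rose at DIV7 against EB8, 109 of 156 at DIV7 against ESC and 85 of 160 at EB8. The list does not hold every such gene. Supt5, a transcription elongation factor outside it, fell by 52.9 points at DIV7 over EB8. Kdm1a, a histone demethylase whose microexon is known to mark its neuronal form, was at 0 in both ESC libraries, where 687 reads allow a PSI of up to 0.437. It was at 7.87 and 10.9 at EB8, and 54.2 and 58.1 at DIV7, so that most of its gain came late (46.7 points at DIV7 over EB8, log2 odds ratio 3.58 ± 0.23 SE, adjusted p = 1.57e-11). Taf1, the largest subunit of the general transcription factor TFIID, was at 0.68 and 2.63 at ESC, 14.5 and 10.8 at EB8, and 59.5 and 73.5 at DIV7. The translation initiation scaffold Eif4g1 was at 0.62 and 0.72 at ESC, 10.2 and 9.55 at EB8, and 49.9 and 57.3 at DIV7. Outside the list, Mta1, a subunit of the NuRD chromatin complex, followed the same late course with 0.31 and 0 at ESC, 18.6 and 16.4 at EB8, and 75.4 and 78.3 at DIV7 (59.3 points at DIV7 over EB8, adjusted p = 1.42e-10).

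Adhesion molecules were mixed. Of 20 microexons in this list tested at DIV7 against EB8, 8 rose and 3 fell. At EB8 against ESC 4 of 7 rose and 1 fell, and at DIV7 against ESC 5 of 7 rose and 1 fell. Among all tested microexons, 98 of 192, 85 of 160 and 109 of 156 rose, with the comparisons in the same order. L1cam and Nrcam are related adhesion molecules of axons, and the printed microexons lie in their cytoplasmic tails. L1cam was at 0 in both ESC libraries, where only 22 reads allow a PSI of up to 13.6 before the read correction. It was at 97.3 and 96.7 at EB8, and at 99.4 in each DIV7 library (97.0 points at EB8 over ESC, adjusted p = 1.59e-07). Nrcam was at 0 in the 1 usable ESC library, at 1.97 and 5.76 at EB8, and at 61.2 and 61.6 at DIV7 (57.5 points at DIV7 over EB8, log2 odds ratio 5.26 ± 0.37 SE, adjusted p = 9.97e-10). The L1cam microexon was thus nearly complete at EB8, when that of Nrcam was nearly absent. Among the latrophilins, which are adhesion receptors of synapses, Adgrl1 was at 16.4 and 16.9 at ESC, 48.3 and 40.1 at EB8, and 45.1 and 47.4 at DIV7. Adgrl2 was at 0 in both ESC libraries, 35.9 and 34.4 at EB8, and 78.5 and 79.5 at DIV7. Adgrl1 did not pass the test between DIV7 and EB8 (2.06 points, adjusted p = 0.77).

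**Figure D3:**
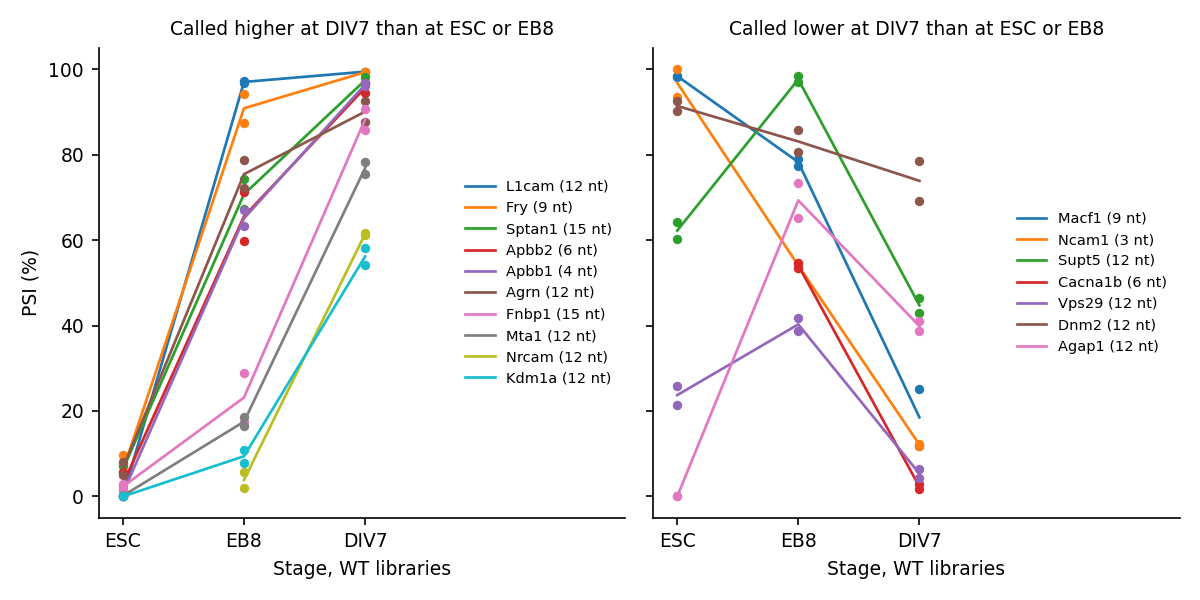
PSI (%) in WT at ESC, EB8 and DIV7 for 10 microexons that rose (left) and 7 that were called lower at DIV7 than at ESC or EB8 (right). Points are libraries and lines join group means. On the left L1cam and Fry are near 90 or above at EB8, while Nrcam and Kdm1a are under 11 there. On the right Supt5, Vps29 and Agap1 peak at EB8.

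Few microexons in the ion channel and vesicle-traffic lists could be tested early. Of 3 in the ion channel list tested at DIV7 against EB8, 2 rose and 1 fell, where 98 of all 192 tested microexons rose and 12 fell. A rise and the fall were in the same gene, Cacna1b, which encodes the pore of N-type calcium channels. Its 6 nt microexon was at 2.83 and 1.73 at DIV7, against 54.7 and 53.5 at EB8 (-51.8 points, log2 odds ratio -5.29 ± 0.60 SE, adjusted p = 1.29e-06). Its 12 nt microexon was at 94.98 and 94.5 at DIV7, against 49.1 and 75.7 at EB8 (32.3 points, adjusted p = 0.0091). The ion channel list does not hold Kcnn1 and Kcnn2, also channel genes. Their microexons were tested at this step and differed by 4.03 and 5.1 points, under the threshold of size. Of 12 microexons in the vesicle-traffic list tested at DIV7 against EB8, 1 rose and none fell. At DIV7 against ESC, 2 of 4 rose and 1 fell, where 109 of all 156 tested microexons rose and 11 fell. The list does not hold Nbea and Vps29, whose proteins also act in membrane traffic and whose microexons fell by 43.2 and 34.9 points at DIV7 over EB8. Ap1b1, a subunit of the clathrin adaptor AP-1, was at 0.90 and 1.60 at ESC, 4.90 and 5.30 at EB8, and 43.6 and 45.9 at DIV7. The dynamins are GTPases that cut endocytic vesicles from the membrane. Dnm1 was at 99.8 and 100 at DIV7, against 94.6 and 92.9 at EB8, a gain of 6.18 points that was under the threshold of size. Dnm2 was at 92.6 and 90.1 at ESC, 80.5 and 85.7 at EB8, and 69.2 and 78.5 at DIV7, a loss of 17.5 points at DIV7 over ESC (adjusted p = 0.0198). Over the same step as Dnm1, DIV7 over EB8, the difference for Dnm2 was -9.21 points and was not called (adjusted p = 0.361).

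Microexons that fell were fewer than those that rose, and the size of the falls varied widely. The 5 called falls at EB8 over ESC ran from -14.4 to -69.9 points, the 12 at DIV7 over EB8 from -11.1 to -59.7, and the 11 at DIV7 over ESC from -11.2 to -84.7. The smallest were those of Nt5c3b, Iffo1 and Commd6, the last at -11.6 points at DIV7 over ESC (adjusted p = 6.26e-06). The 9 nt microexon of Macf1, a spectraplakin that links microtubules to actin, was at 98.2 and 98.5 at ESC, 77.4 and 79.05 at EB8, and 25.2 and 11.9 at DIV7. Its loss of 59.7 points at DIV7 over EB8 (log2 odds ratio -4.05 ± 0.31 SE, adjusted p = 4.2e-10) was the largest of a called fall at that step. A second Macf1 microexon, of 6 nt, was at 0 in both ESC libraries, 19.7 and 15.4 at EB8, and 34 and 40.5 at DIV7. The 3 nt microexon of Ncam1, a neural cell adhesion molecule, was at 93.5 and 100 at ESC, 54.6 and 53.5 at EB8, and 12.4 and 11.9 at DIV7. Its 15 nt microexon was at 8.40 and 4.85 at DIV7, against 40.2 and 45.3 at EB8. Robo1, a receptor of Slit proteins, was at 2.65 and 7.27 at DIV7, against 29.3 and 25.5 at EB8. Nbea, a large protein of vesicle traffic at synapses, was at 11.1 and 11.2 at DIV7, against 43.4 and 65.2 at EB8.

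Supt5 and Vps29 rose and then fell, as Agap1 did. The microexon of Supt5, a transcription elongation factor, was at 60.2 and 64.2 at ESC, 98.3 and 96.9 at EB8, and 43.0 and 46.4 at DIV7. The rise was 35.4 points (log2 odds ratio 4.28 ± 0.46 SE, adjusted p = 2.42e-07) and the fall 52.9 points (log2 odds ratio -5.30 ± 0.46 SE, adjusted p = 3.65e-09). Vps29, a subunit of the retromer coat, was at 21.5 and 25.96 at ESC, 41.7 and 38.8 at EB8, and 6.49 and 4.21 at DIV7, a fall of 34.9 points at the second step (adjusted p = 2.71e-11).

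The edited lines stood apart from each other at EB8 and little at the other stages. Mean PSI of the 139 microexons at EB8 was 45.05 ± 0.915 in Puf60.mEx5.HOM, 31.5 ± 2.68 in Puf60.pEx5.HOM, 41.6 ± 0.0862 in Puf60.pEx5.HET, 33.7 ± 2.66 in Rbm38KO and 37.2 ± 1.44 in WT. From high to low the order was Puf60.mEx5.HOM, Puf60.pEx5.HET, WT, Rbm38KO and Puf60.pEx5.HOM, and of neighbours in that order only the libraries of Rbm38KO and Puf60.pEx5.HOM overlapped. The heterozygous line was thus above WT while the homozygous line with the same edit was below it. Summed RPKM of the 6 neuron markers at EB8 had the same order, with 1302 in Puf60.mEx5.HOM, 1094 in Puf60.pEx5.HET, 686 in Rbm38KO, 609.8 in Puf60.pEx5.HOM and 900.6 in WT, and its part in the microexon levels was not tested. In the authors' deposited table, 5 of the 6 neuron markers were higher at FDR under 0.05 in Puf60.mEx5.HOM than in WT, and 5 of 6 were lower in Puf60.pEx5.HOM than in WT. None of the 6 passed in Puf60.pEx5.HET or Rbm38KO. At DIV7, where no neuron marker passed in any line, mean PSI was between 60.4 in WT and 63.2 in Puf60.pEx5.HOM.

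In Puf60.mEx5.HOM at EB8, 8 of 198 tested microexons were higher than in WT and none lower, 4.04% where 0.458% of all tested events were called (0.271% higher, 0.187% lower). The median difference over the 198 was 5.35 PSI points, and 145 were higher, against a median of 0.325 points over all events. The microexon of Dtna, alpha-dystrobrevin of the dystrophin complex, was at 80.0 and 75.8 in Puf60.mEx5.HOM, against 40.6 and 41.4 in WT (36.8 points, log2 odds ratio 2.31 ± 0.44 SE, adjusted p = 0.0127). Acap2, an Arf GTPase-activating protein, was at 47.9 and 63.1 against 17.8 and 23.3 in WT (34.9 points, adjusted p = 0.0383). The 9 nt microexon of Dctn2, a subunit of the dynein activator dynactin, was at 51.3 and 58.5 against 31.9 and 39.0 in WT (19.4 points, adjusted p = 0.00444). Emc1, a subunit of a complex that inserts membrane proteins into the endoplasmic reticulum, was at 58.9 and 64.8 against 37.8 and 44.7 in WT. The others were Asap2 at 22.2 points, the 12 nt microexon of Sh3glb2 at 13.8, Slc12a7 at 11.97 and Eef1d at 10.8. In none of the 8 did the 2 libraries of one line overlap those of the other. The 8 were called from these same libraries, so this adds no support to the calls. The share without overlap among all tested microexons is not given here. The count of 8 called rests on few libraries: it was 1 without Puf60.mEx5.HOM A or without WT B, and 0 without Puf60.mEx5.HOM B or without WT A. In the authors' deposited table, none of the 8 host genes had an FDR under 0.05 in this comparison. The share over all genes is not given here, so this does not show that host gene levels were unchanged.

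In Puf60.pEx5.HOM at EB8, 12 of 189 tested microexons were lower than in WT and 2 higher, 7.41% where 2.13% of all tested events were called (1.02% higher, 1.11% lower). This comparison and the last share the WT libraries. The median difference was -3.97 points, with 137 of 189 lower, against 0.36 over all events. Adgrl2 was at 9.77 and 11.1 in Puf60.pEx5.HOM, against 35.9 and 34.4 in WT (-24.7 points, log2 odds ratio -2.18 ± 0.39 SE, adjusted p = 0.00132). Clec16a was at 23.2 and 13.8 against 43.5 and 41.0 in WT (-23.8 points, adjusted p = 0.00384). Fnbp1, an F-BAR protein that bends membranes during endocytosis, was at 2.50 and 4.21 against 28.8 and 17.5 in WT (-19.8 points, adjusted p = 0.0131). Edem3, which trims glycans of misfolded proteins in the endoplasmic reticulum, was at 2.19 and 0.72 against 16.1 and 12.3 in WT (-12.7 points, adjusted p = 0.000985). The 9 nt microexon of Dctn2 was at 23.04 and 16.03 against 31.9 and 39.0 in WT, and that of Dctn1, the largest dynactin subunit, at 35.8 and 26.5 against 47.9 and 48.4. The other 6 lower were in Sidt2, Vav2, Ptprk, Unc13b, Myo18a and Sh3glb2 (12 nt), by 12.1 to 23.4 points.

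The 2 that were higher in Puf60.pEx5.HOM were Robo2 and Col4a5. Robo2, like Robo1 a Slit receptor, was at 85.05 and 88.7 in Puf60.pEx5.HOM, against 49.8 and 60 in WT (31.98 points, log2 odds ratio 2.26 ± 0.60 SE, adjusted p = 0.0471). Col4a5, a chain of basement membrane collagen, was at 69.7 and 71.9 against 49.4 and 36.5 in WT (27.9 points, adjusted p = 0.0325). The count of 14 was 2 without Puf60.pEx5.HOM B, 7 without WT A, 7 without WT B and 10 without Puf60.pEx5.HOM A. In the authors' deposited table, 1 of the 14 host genes had an FDR under 0.05 in this comparison, again without the share over all genes.

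**Figure D4:**
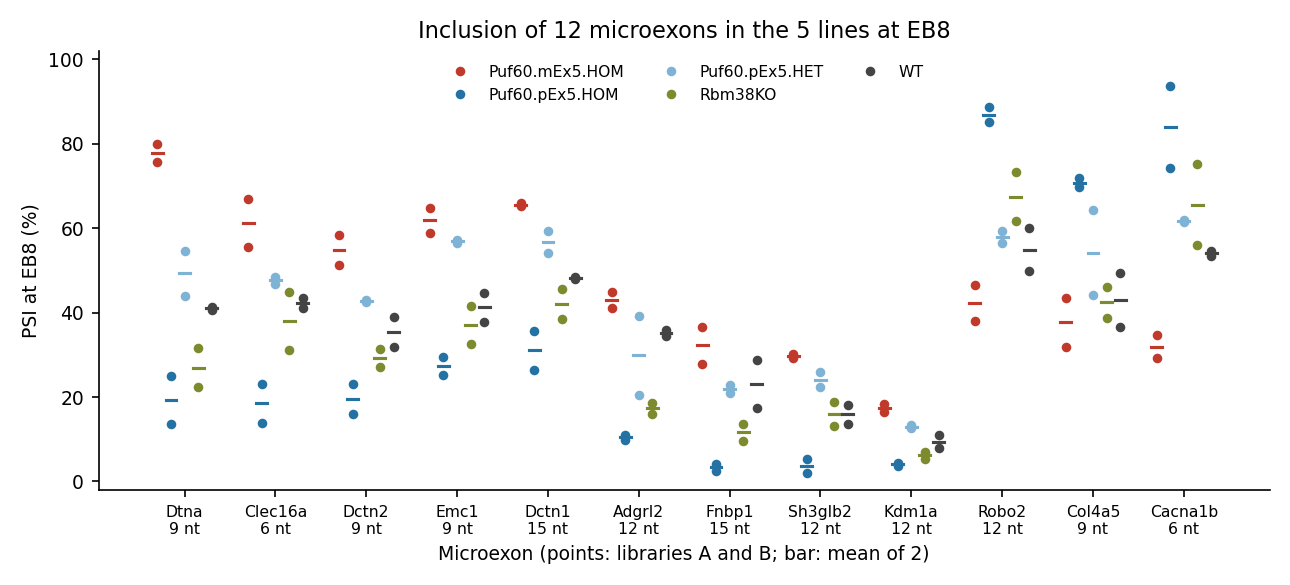
PSI (%) of 12 microexons at EB8 in the 5 lines, Puf60.mEx5.HOM leftmost and WT rightmost within each microexon. Points are the 2 libraries and horizontal bars their mean. From Dtna to Kdm1a, Puf60.mEx5.HOM is the highest line and Puf60.pEx5.HOM the lowest by mean, and for Robo2, Col4a5 and Cacna1b the 2 lines change places.

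Set against each other at EB8, the 2 homozygous Puf60 lines differed in 79 of 190 tested microexons, 69 of them higher and 10 lower in Puf60.mEx5.HOM. That is 41.6%, against 6.31% of all tested events (3.42% higher, 2.9% lower), 36.6% of exons of 16 to 27 nt and 12.8% of exons of 28 nt or more. Dtna was at 80.0 and 75.8 in Puf60.mEx5.HOM and 13.7 and 24.9 in Puf60.pEx5.HOM (58.6 points, log2 odds ratio 3.89 ± 0.48 SE, adjusted p = 6.83e-06). Slit2, the ligand of the Robo receptors, was at 92.2 and 92.8 against 64.5 and 13.2, a pair of libraries far apart (53.7 points, adjusted p = 0.00281). Slc43a2, an amino acid transporter, was at 61.1 and 64.9 against 19.4 and 15.8 (45.4 points, adjusted p = 0.000776). The count was 63 without Puf60.mEx5.HOM A, 60 without Puf60.pEx5.HOM A, 53 without Puf60.mEx5.HOM B and 46 without Puf60.pEx5.HOM B.

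By host role, the counts below stand beside 69 of all 190 tested microexons higher in Puf60.mEx5.HOM and 10 lower. Of tested scaffold microexons, 7 of 10 were higher in Puf60.mEx5.HOM and none lower. In this list Erc1 was at 73.6 and 83.1 in Puf60.mEx5.HOM, against 42.2 and 30.8 in Puf60.pEx5.HOM, and Unc13b, a priming factor of synaptic vesicles, was at 49.0 and 48.0 against 18.4 and 15.5. Of 16 cytoskeletal microexons 9 were higher and 2 lower. Sptan1 was at 83.5 and 83.6 against 61.3 and 60.2 (22.8 points, adjusted p = 0.00014), and Myo5a was at 74.7 and 70.6 against 41.0 and 34.5. Of 13 in GTPase and kinase signalling 9 were higher and none lower, and of 18 in adhesion molecules 3 were higher and 4 lower. One of 4 in transcription, chromatin and translation was higher, namely Kdm1a at 16.6 and 18.4 against 4.45 and 3.75 (13.4 points, adjusted p = 2.11e-05). Of 9 vesicle-traffic microexons, 1 was higher, Dnm1 at 99.0 and 96.6 against 83.9 and 68.9, and 1 was lower, Dnm2 at 70.0 and 51.8 against 94.6 and 83.8.

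The 10 that were lower in Puf60.mEx5.HOM than in Puf60.pEx5.HOM at EB8 were the 6 nt microexon of Cacna1b, Robo2, Col4a5, Robo1, Dnm2, the 9 nt one of Macf1, both of Ncam1, Vps29 and Clasp2. All 10 had a length divisible by 3, as had 83.2% of the 190 tested and 89.9% of the 69 that were higher. Cacna1b was at 34.7 and 29.1 in Puf60.mEx5.HOM and 74.1 and 93.5 in Puf60.pEx5.HOM (-51.9 points, log2 odds ratio -2.98 ± 0.62 SE, adjusted p = 0.00348). Robo2 was at 38.1 and 46.4 against 85.05 and 88.7 (-44.6 points, adjusted p = 0.00211). Macf1 was at 62.5 and 62.0 against 88.3 and 91.6 (-27.7 points, log2 odds ratio -2.41 ± 0.36 SE, adjusted p = 6.74e-05). For Cacna1b and Macf1, the WT libraries at EB8 lay between the 2 lines, at 54.7 and 53.5 and at 77.4 and 79.05.

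These differences at EB8 ran along the WT course from EB8 to DIV7, 2 comparisons with no library in common. Of the 69 microexons higher in Puf60.mEx5.HOM, 58 (84.1%) were among the 98 that rose in WT at DIV7 over EB8, of which they made up 59.2%. Of the 10 lower, 7 (70%) were among the 12 that fell in WT, or 58.3% of those. For comparison, of all 192 microexons tested at that step in WT, 98 rose and 12 fell. Over 183 microexons tested in both, the difference between the lines and the WT difference had a Pearson r of 0.63 and a Spearman rho of 0.63, and 80.3% had the same sign. Of tested microexons, 79.2% were higher in WT at DIV7 and 75.3% were higher in Puf60.mEx5.HOM at EB8. Of all events these shares were 53.8% and 49.6%. The large share of like signs among microexons is thus partly given by these shares alone. Exons of 16 to 27 nt had r = 0.58 over 267, exons of 28 nt or more r = 0.46 over 7238, and all events r = 0.40 with 58.3% of the same sign. With the differences between the lines at ESC, r was 0.05 over 146 microexons, and at DIV7 it was 0.23 over 186. These correlations are across microexons, which share libraries and host genes, and are given as descriptions.

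**Figure D5:**
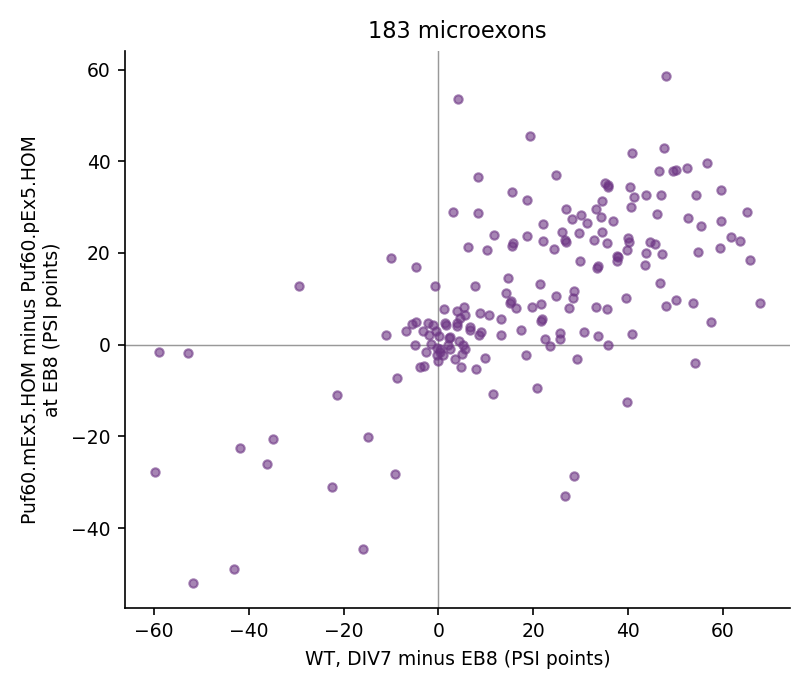
Each point is 1 of 183 microexons, placed by its change in WT (DIV7 minus EB8, PSI points, horizontal) and by the difference between the homozygous Puf60 lines at EB8 (Puf60.mEx5.HOM minus Puf60.pEx5.HOM, PSI points, vertical). Most points lie in the upper right and lower left, and 80.3% have the same sign on both axes (r = 0.63). Of tested microexons, 79.2% were higher in WT at DIV7 and 75.3% in Puf60.mEx5.HOM.

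In undifferentiated cells the lines differed in few microexons. Puf60.mEx5.HOM had 0 of 163 called against WT (limma-based fit), where 0.0227% of all events were called. Of the 163 microexons, 8 had an unadjusted p under 0.05. Without any difference a share of about 0.05 of tests has such a p, and the share of all events is not given here. This limit holds for every count at unadjusted p below, which the shares of events called do not match in threshold. Puf60.pEx5.HOM had 2 of 157 higher than WT and none lower, 1.27% where 1.37% of all events were called (0.699% higher, 0.676% lower), so the share was near the background. Map4k4, a kinase of the MAP4K family, was at 83.5 and 85.7 in Puf60.pEx5.HOM, against 62.4 and 70.7 in WT (18.1 points, log2 odds ratio 1.45 ± 0.25 SE, adjusted p = 0.00137). Adgrl1 was at 26.8 and 36.3 against 16.4 and 16.9 in WT (14.8 points, adjusted p = 0.0129). The count was 0 without WT A, and 1 without WT B or without Puf60.pEx5.HOM B.

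Between the homozygous Puf60 lines at ESC, 5 of 159 microexons were lower in Puf60.mEx5.HOM and none higher, 3.14% against 2.06% of all events (1.01% higher, 1.05% lower). Map4k4 was at 57.2 and 64.2 in Puf60.mEx5.HOM and 83.5 and 85.7 in Puf60.pEx5.HOM (-23.9 points, log2 odds ratio -1.82 ± 0.25 SE, adjusted p = 6e-05). The others were Adgrl1 at -18.9 points, Hook3, an adaptor of dynein, at -30.0, Tmem237, a protein of the ciliary transition zone, at -25.2, and Ptk2, focal adhesion kinase, at -18.9. The direction of these 5, whose share was near that of all events, was opposite to that of most microexons called between these lines at EB8. Ptk2 was higher in Puf60.mEx5.HOM at EB8, at 76.2 and 80.0 against 68.4 and 66.8 in Puf60.pEx5.HOM. The count of 5 was 2 without Puf60.mEx5.HOM A or without Puf60.pEx5.HOM B, and 3 without Puf60.pEx5.HOM A or without Puf60.mEx5.HOM B.

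At DIV7, Puf60.mEx5.HOM had 0 of 203 microexons called against WT (limma-based fit), where 0.107% of all events were called and 29 microexons had an unadjusted p under 0.05. Puf60.pEx5.HOM had 3 of 205 higher and 1 lower, 1.95% where 1.41% of all events were called (0.683% higher, 0.722% lower), again near the background. Kcnn2, a calcium-activated potassium channel, was at 26.96 and 28.6 in Puf60.pEx5.HOM, against 5.69 and 11.9 in WT (19 points, log2 odds ratio 1.90 ± 0.38 SE, adjusted p = 0.00767). Emc1 was at 90.0 and 93.5 against 73.7 and 80.3 in WT (14.8 points, adjusted p = 0.00579), and Slc12a7, a potassium-chloride cotransporter, at 37.0 and 49.8 against 11.1 and 27.9 (23.9 points, adjusted p = 0.0495). Commd6 was lower, at 72.8 and 76.7 against 86.1 and 85.2 in WT (-10.9 points, adjusted p = 0.0132). The count was 0 without WT A, 1 without Puf60.pEx5.HOM A and 2 without Puf60.pEx5.HOM B. Stem cell markers summed to 217.3 RPKM in Puf60.pEx5.HOM at DIV7 and 28.2 RPKM in WT, with 4 of 5 higher at FDR under 0.05 in the authors' deposited table. Astrocyte markers summed to 40.6 RPKM in Puf60.pEx5.HOM and 141.9 RPKM in WT, with 4 of 4 lower at FDR under 0.05 in the authors' deposited table. Endoderm markers summed to 2.21 and 33.1 RPKM in the same groups, with 3 of 4 lower at FDR under 0.05 in the authors' deposited table. The part of these markers in the microexon differences was not tested.

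Between the homozygous Puf60 lines at DIV7, 2 of 204 microexons were higher and 4 lower in Puf60.mEx5.HOM, 2.94% where 2.89% of all events were called (1.46% higher, 1.43% lower), so the share of microexons was that of all events. The 12 nt microexon of Cacna1a, the pore of P/Q-type calcium channels, was at 63.6 and 65.2 in Puf60.mEx5.HOM and 38.2 and 23.9 in Puf60.pEx5.HOM (33.4 points, adjusted p = 0.0045). Kif21a, a kinesin, was higher by 16.7 points (adjusted p = 0.0323). Kcnn2 was at 2.68 and 2.58 against 26.96 and 28.6 (-25.1 points, adjusted p = 0.00153), and Dnm2 at 30.4 and 48.6 against 74.7 and 67.3 (-31.5 points, adjusted p = 0.0154). Nbea and Supt5 were lower by 22.9 and 12.6 points. Dnm2 was thus lower in Puf60.mEx5.HOM than in Puf60.pEx5.HOM at both EB8 and DIV7, and at ESC its values were 73.9 and 81.6 against 93.5 and 96.1, which was not called. Stem cell markers at DIV7 summed to 11.5 RPKM in Puf60.mEx5.HOM and 217.3 RPKM in Puf60.pEx5.HOM, and astrocyte markers to 124.1 and 40.6 RPKM, and their part was not tested. The count of 6 was 2 without Puf60.mEx5.HOM B, 3 without Puf60.mEx5.HOM A, 3 without Puf60.pEx5.HOM A and 4 without Puf60.pEx5.HOM B.

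No microexon was called against WT in Puf60.pEx5.HET or in Rbm38KO at any stage (limma-based fit with Benjamini-Hochberg adjustment), which with 2 libraries a group does not show that none differed. In Puf60.pEx5.HET 161, 198 and 207 microexons were tested at ESC, EB8 and DIV7, and 7, 33 and 14 had an unadjusted p under 0.05. Of all events, 0.0154%, 0.0135% and 0.0141% were called. In Rbm38KO 161, 197 and 208 were tested and 6, 27 and 7 had an unadjusted p under 0.05, with 0.00381%, 0% and 0% of all events called. In an unweighted fit 1 microexon was called in Puf60.pEx5.HET at DIV7, and on PSI points 1 at ESC and 1 at EB8. Without Rbm38KO A, 1 was called in Rbm38KO at EB8. At EB8 the median difference from WT was 3.49 points in Puf60.pEx5.HET, with 146 of 198 higher, and -2.38 points in Rbm38KO, with 137 of 197 lower. Over all events those medians were 0.805 and 0.62.

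Whether the change between stages itself differed from that in WT was tested for each edited line. It did for 5 of 179 microexons in Puf60.pEx5.HOM at DIV7 over EB8, where 0.254% of all events were called (0.171% as larger gains, 0.0834% as smaller), and these 5 gained more in that line. They were in Emc1, Clec16a, Fnbp1, Dctn1 and Edem3. All but Emc1 were also called lower than WT at EB8, from the same EB8 libraries, and only Emc1 was called at DIV7. Emc1 was at 91.7 at DIV7 and 27.4 at EB8 in Puf60.pEx5.HOM, against 77.0 at DIV7 and 41.25 at EB8 in WT (group means of 2 libraries), a difference of 28.6 points between the gains (log2 odds ratio 2.56 ± 0.44 SE, adjusted p = 0.0094). In none of the other 7 such tests was a microexon called, with 2 to 25 having an unadjusted p under 0.05. Of all events, 0.0196% were called for Puf60.mEx5.HOM at DIV7 over EB8, 0.0129% for Puf60.pEx5.HOM and 0.00426% for Rbm38KO at EB8 over ESC, and 0% in the other 4. The count of 5 was 0 without DIV7 WT A, EB8 Puf60.pEx5.HOM B or DIV7 Puf60.pEx5.HOM B, 2 without EB8 WT B, 3 without EB8 WT A and 8 without DIV7 WT B.

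Levels of known regulators of microexons are given in the authors' deposited table as 1 value per group. In the authors' deposited table Srrm4 was at 0.23 RPKM in WT at ESC, 10.7 at EB8 and 7.70 at DIV7, and Srrm3 at 0.37, 17.1 and 30.8. In the same authors' deposited table the repressors Rest and Ptbp1 were highest at ESC, with 52.7, 5.41 and 1.91 RPKM for Rest and 425.3, 120.9 and 34.2 for Ptbp1. At EB8 in the authors' deposited table, Srrm4 was at 12.4 RPKM in Puf60.mEx5.HOM (FDR 0.8895 against WT), 9.71 in Puf60.pEx5.HOM (FDR 1) and 10.7 in WT. Srrm3 in the authors' deposited table was at 22.3 (FDR 0.1916), 11 (FDR 0.002683) and 17.1 in the same groups. Larger differences in the authors' deposited table were those of Rbfox1, a neuronal splicing factor, with 28.9 RPKM in Puf60.mEx5.HOM (FDR 1.296e-06), 5.17 in Puf60.pEx5.HOM (FDR 3.216e-14) and 14.4 in WT. Rbfox3, of the same family and also a neuron marker, was at 46.6 (FDR 0.0001156), 10.3 (FDR 2.518e-07) and 23.7 in the authors' deposited table. Ptbp1 was at 76.7 (FDR 0.06879), 148.1 (FDR 0.7147) and 120.9 in the authors' deposited table. The part of these levels in the PSI differences was not tested.

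The authors' own calls of differential splicing, made by rules that no source used here gives, can be set beside these. All 8 and 14 microexons called here against WT at EB8 in the homozygous Puf60 lines are marked as changed in the authors' deposited table. Of the 79 called here between the lines at EB8, 75 are, where the authors marked 7.73% of microexons with a call and 2.12% of all events. For Puf60.pEx5.HOM against WT at EB8 they marked 12.48% of microexons and 13.02% of all events. In the authors' deposited table, 4.87% of microexons with a call were marked in Puf60.mEx5.HOM against WT at EB8, where 1.16% of all events were, and 2.64% against 1.10% in Puf60.pEx5.HET.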

How the data were processed

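Poly(A) RNA was sequenced by the authors in 30 libraries of 15 groups with a stranded protocol modified for longer inserts, per the labels' protocols. The deposited splicing table gives, per library and event, the percent spliced in (PSI, in percent) and a quality field with the mappability-corrected inclusion and exclusion reads, in the format of vast-tools. The authors' deposited expression table gives 1 RPKM value per gene and group with log2 fold changes and FDR values (adjusted p-values). The submitters' processing notes name build mm10, Salmon 0.14.1 and edgeR, with no role stated, and the version of vast-tools is not given in the sources used here.

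PSI was used with 10 or more reads. The log2 of (inclusion + 1) over (exclusion + 1) reads was fitted per event as 15 group means with limma 3.58.1 (R 4.3.3), each library weighted by the inverse of its counting variance plus a common extra variance of 0.0239 on the squared log2 scale, with robust moderation of the residual variance (15 residual degrees of freedom with all libraries). The fit covered 39871 events of every type that were usable in 4 or more libraries and had a mean PSI of 5 to 95, and a comparison tested those usable in both libraries of each group. P-values were adjusted by Benjamini and Hochberg over all events tested in a comparison, and all adjusted p-values of PSI differences are from this fit. Calls needed an adjusted p under 0.05 and 10 PSI points. Errors are the SD of 2 libraries or the SE of the fit. Nothing in the labels says that A and B came from separate cultures, and the spread behind the p-values may be technical. With 2 libraries a group, an exact two-sided permutation test of a single value cannot give a p under 0.3333. Read limits at a PSI of 0 (3 reads of those behind it) cover counting error only, and corrected reads are not raw reads. These limits leave out the read correction and are too low where it raises the odds of inclusion. The ratio of corrected to raw odds was 4.06 for Cask, 1.66 for L1cam, 1.14 for Myo5a and 0.522 for Kdm1a. The fit was tested on simulated data.

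The microexons named are, for each WT comparison, the 8 called with the largest rise and the 8 with the largest fall among those whose libraries do not overlap. For each line and stage, and between the homozygous Puf60 lines, they are up to 3 in each direction and those called in the same direction at 2 or more stages. Up to 4 called members of each list of host genes by role, and a list of regulators, were added. Others named, such as the remaining called microexons of the line comparisons, the 6 nt one of Macf1, Adgrl1 in WT, and Dnm1 in WT, were chosen after their values were seen. The microexons, host lists and marker lists were chosen with earlier results of these data known. Alternatives changed the minimum reads, the pseudocount, the filter on mean PSI, the weights, the scale, the libraries in the fit, the size threshold, the coverage score, a replicate block and single libraries left out. Microexon sequences come from GENCODE M21 transcripts matched by mm10 coordinates. Those on chromosome 18, such as Dtna and Kcnn2, are not printed. Python 3.11.15, numpy 2.4.6 and pandas 2.3.3 did the rest.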

Additional observations from a re-analysis of the deposited data

Results flagged for a closer look

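Each of the following microexons changed between EB8 and DIV7 by a different amount in Puf60.pEx5.HOM than in WT, by a test of that difference (limma-based fit, Benjamini-Hochberg adjustment over all events). Values are group means of 2 libraries. For Emc1 (9 nt) the gain was 28.61 points larger in Puf60.pEx5.HOM, with 91.74 at DIV7 and 27.4 at EB8, against 76.98 and 41.25 in WT (adjusted p = 0.0094). For Clec16a (6 nt) it was 28.14 points larger, with 94.27 and 18.49 against 89.89 and 42.24 in WT (adjusted p = 0.0467). For Fnbp1 (15 nt) it was 24.48 points larger, with 92.88 and 3.355 against 88.2 and 23.15 in WT (adjusted p = 0.0469). For Dctn1 (15 nt) it was 22.28 points larger, with 93.89 and 31.12 against 88.65 and 48.16 in WT (adjusted p = 0.0262). For Edem3 (12 nt) it was 17.29 points larger, with 34.27 and 1.455 against 29.68 and 14.16 in WT (adjusted p = 0.00977).

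In all 5 the EB8 mean was lower in Puf60.pEx5.HOM than in WT and the DIV7 mean was higher. Clec16a, Fnbp1, Dctn1 and Edem3 were already called lower than WT at EB8, from the same EB8 libraries, and were not called at DIV7. Emc1 was called higher than WT at DIV7 and was not called at EB8. With each of the 8 libraries left out in turn, Emc1 and Edem3 were called 4 times, Dctn1 3 times, Fnbp1 2 times and Clec16a 1 time, and the highest adjusted p was between 0.102 for Emc1 and 0.345 for Fnbp1. Neuron markers at EB8 summed to 609.8 RPKM in Puf60.pEx5.HOM and 900.6 in WT, and their part in these differences was not tested.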

How the results depend on the processing

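None of the 91 named microexons changed direction in its comparison under the alternatives run. Of these 91, 66 stayed called under every alternative other than a library left out and the one with raw reads, and 55 under all. These 2 counts cover only alternatives in which a microexon had a value. With 20 reads per library 80 of the 91 had one, and with low coverage scores left out 79 had one. L1cam is thus among the 55 without a test at 20 reads. Among comparisons of lines those 55 hold Adgrl2 (Puf60.pEx5.HOM against WT, EB8), Dtna, Slc43a2 and Slit2 (homozygous Puf60 lines, EB8) and Map4k4 (the same, ESC). The 3 WT counts (90, 110 and 120) moved by less than 1.5 times under all alternatives, and were 71 to 88, 89 to 101 and 112 to 120 with single libraries left out.

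Counts of lines were less stable. For Puf60.mEx5.HOM against WT at EB8 (8 called) the count was 2 with a pseudocount of 0.5, without the filter on mean PSI or with the libraries of EB8 alone, 0 in an unweighted fit, 23 on PSI points, 5 with a threshold of 15 points, 16 with the counting variance from raw reads (an alternative chosen after seeing the data), and 0 to 1 with a library left out. For Puf60.pEx5.HOM against WT at EB8 (14) it was 9 with a pseudocount of 0.5, 8 without the filter, 5 unweighted and 2 to 10 with a library left out. At ESC (2) it was 1 without the filter or at 15 points, 0 unweighted or with ESC libraries alone, 5 on PSI points and 0 to 3 with a library left out. At DIV7 (4) it was 0 unweighted or with DIV7 libraries alone, 2 at 15 points and 0 to 3 with a library left out. Between the homozygous Puf60 lines it was 3 at ESC (5) with ESC libraries alone, and 43 at EB8 (79) and 1 at DIV7 (6) unweighted, and with a library left out 2 to 3, 46 to 63 and 2 to 4. On PSI points 1 microexon was called in Puf60.mEx5.HOM at ESC and at DIV7, 1 in Puf60.pEx5.HET at ESC and at EB8, 2 in Puf60.mEx5.HOM for the change from ESC to EB8 and 1 for that from EB8 to DIV7. An unweighted fit called 1 in Puf60.pEx5.HET at DIV7, and leaving out a library gave 0 to 1 in Rbm38KO at EB8. For the change from EB8 to DIV7 in Puf60.pEx5.HOM (5) the count was 2 with a pseudocount of 0.5 or with those stages alone, 1 without the filter, 0 unweighted and 0 to 8 with a library left out. The cause was not tested. Where a library is left out, the lone library is assumed to vary like the other groups.

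The replicate letters were not taken to pair the libraries, since over 5038 events the deviations of same-lettered libraries correlated above 0.1 in 13 of 30 pairs of groups within a stage (-0.131 to 0.287). The correlations were highest at ESC, where all 6 pairs of edited lines were above 0.1 (0.181 to 0.287) and the pairs with WT were not (0.0544 to 0.0942), while 5 of 10 pairs were above it at EB8 and 2 of 10 at DIV7. With the replicate block the counts were 90, 110 and 120 in WT, 9 and 15 for the homozygous Puf60 lines against WT at EB8, and 80 between them, and 5 between them at ESC as without the block, and all 91 named calls were kept. With 20 reads per library, the mean PSI at EB8 over 114 microexons was 46.5 in Puf60.mEx5.HOM, 31.9 in Puf60.pEx5.HOM, 42.7 in Puf60.pEx5.HET, 35.1 in Rbm38KO and 38.3 in WT. Depth limited what could be tested at ESC, where hosts such as L1cam had 10 and 12 reads.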

Other observations

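In WT, microexons called lower and outside the host lists included that of Mylpf, a myosin light chain of fast muscle, at 3.52 and 19.6 at EB8, against 86.2 and 76.6 at ESC (-69.9 points, adjusted p = 2.34e-05). Muscle markers summed to 4.31 RPKM at EB8 and 33.1 RPKM at ESC in WT, and their part in this was not tested. Spag4 was at 88.1 and 87.5 at ESC, 90.7 and 88.9 at EB8, and 39.6 and 22.2 at DIV7. The 8 nt microexon of Dmtn, which binds and bundles actin, was at 89.5 and 86.3 at ESC and 69.3 and 68.1 at DIV7, while its 5 nt microexon, read from the same junctions, was at 10.6 and 13.4 at ESC and 30.7 and 31.9 at DIV7. Late rises outside the lists were those of Bicdl1, an adaptor of dynein, at 83.2 and 89.1 at DIV7 against 36.4 and 4.29 at EB8, and of Celsr3, an atypical cadherin of axon guidance, at 78.4 and 88.7 against 23.5 and 16.5.

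In the authors' deposited table, 13.02% of all events and 12.48% of microexons with a call were marked as changed in Puf60.pEx5.HOM against WT at EB8, while for the other 11 comparisons of a line with WT at most 1.581% of all events were.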
